A study of Mus musculus with 12 samples.

Results

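The oligoadenylate synthetase family was followed in mouse brain through 6 genes, Oas1a, Oas1b, Oas2, Oas3, Oasl1 and Oasl2, of 12393 genes tested. They were chosen by name, as the probe sets annotated to these genes, and each had a single probe set (a group of short array oligonucleotides read as 1 value) annotated to it alone. Arrays of total brain lysate fell into 4 genotypes of 3 arrays each, all from adult mice that had been given no treatment and were housed free of specific pathogens. WT mice carried neither knockout, USP18ko mice lacked Usp18, IFNARko mice lacked Ifnar1, and USP18ko:IFNARko mice, called the double knockout here, lacked both. How the alleles were made, and the strain and sex of the mice, were not given in the sources used here. Nothing in the labels says that replicates were separate animals, so p-values measure the spread between these arrays, whatever its source.

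Oligoadenylate synthetases bind double-stranded RNA, and when bound they link ATP into short chains called 2-5A. These chains act as an antiviral signal inside the cell. The genes are classical targets of interferon, which acts through the receptor chain made by Ifnar1 and through a transcription factor complex, with IRF9 as its DNA-binding part, that binds the interferon-stimulated response element. Usp18 encodes a protease that removes ISG15 from proteins and also restrains that receptor. In the brain, microglia are the cells best known for needing this restraint.

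The members differ in structure and role. Oas1a is the mouse gene closest to human OAS1 and makes an active synthetase. Oas1b is known for the resistance of some mice to flaviviruses and is interrupted by a stop codon in many laboratory strains, and it is annotated as a transcribed pseudogene in the RefSeq table of GRCm38.p6. Oas2 and Oas3 make larger enzymes of repeated synthetase units. Oasl1 and Oasl2 make synthetase-like proteins with ubiquitin-like ends. OASL1 lacks synthetase activity and is known to restrain translation of IRF7, whereas mouse OASL2 keeps that activity.

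Promoter sequences are shown first, because 5 of the 6 genes moved together and a shared response element is the usual way in which interferon reaches them. RefSeq windows on GRCm38.p6 were at hand for 4 of the 6 members, Oas1a, Oas3, Oasl1 and Oasl2. Those of the paralogs Oas1g, which lies next to Oas1a, and Oas1c are shown for comparison. Each line gives the 150 bases before the start used for its window, 5′ to 3′ on the strand of the gene. That is the start meant below. Matches to the core of the response element, GAAA, any 2 bases and GAAA on either strand, are in capitals. On their own strands, the RefSeq genes start at 120907544 for Oas1a, 120777684 for Oas3, 120812540 for Oas1c, 114923143 for Oasl1 and 114896926 for Oasl2. The lines of these genes thus run partly inside the gene, that of Oasl1 for most of its length.
Oas1a, chr5:120907526-120907675, minus strand: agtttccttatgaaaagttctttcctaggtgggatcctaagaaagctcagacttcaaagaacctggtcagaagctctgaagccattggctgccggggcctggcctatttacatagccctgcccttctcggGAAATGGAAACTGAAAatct
Oas1g, chr5:120887614-120887763, minus strand: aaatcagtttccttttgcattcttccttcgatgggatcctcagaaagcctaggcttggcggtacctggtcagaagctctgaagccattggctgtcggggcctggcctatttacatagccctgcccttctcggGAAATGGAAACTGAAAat
Oas3, chr5:120777660-120777809, minus strand: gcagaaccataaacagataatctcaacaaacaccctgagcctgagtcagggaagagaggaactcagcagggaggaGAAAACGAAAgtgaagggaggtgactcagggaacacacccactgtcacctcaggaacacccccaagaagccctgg
Oas1c, chr5:120812515-120812664, minus strand: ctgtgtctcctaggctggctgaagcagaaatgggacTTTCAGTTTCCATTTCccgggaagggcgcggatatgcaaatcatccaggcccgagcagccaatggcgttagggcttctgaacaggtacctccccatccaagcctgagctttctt
Oasl1, chr5:114923090-114923239, plus strand: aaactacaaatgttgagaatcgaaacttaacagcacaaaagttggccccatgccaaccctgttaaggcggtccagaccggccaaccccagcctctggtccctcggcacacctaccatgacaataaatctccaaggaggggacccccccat
Oasl2, chr5:114896784-114896933, plus strand: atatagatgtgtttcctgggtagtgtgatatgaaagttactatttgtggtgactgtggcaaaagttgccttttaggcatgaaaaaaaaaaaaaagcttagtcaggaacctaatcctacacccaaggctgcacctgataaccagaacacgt

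Oas1a held 2 overlapping matches, the first beginning 20 bases before the start and the second 14 bases before it. Oas3 held 1 match, beginning 75 bases before its start. Oas1c also held 2 overlapping matches, on the opposite strand. No match lay in the 300-base windows of Oasl1 and Oasl2, which says only that these letters are not in these windows. Over all 32851 windows of 300 bases, 3.44% held at least 1 match. The gamma-activated site, read as TTC, any 3 bases and GAA on either strand, was found in 8.30% of windows and, among these 6 genes, only in that of Oas1a, beginning 98 bases before the start. The letters of the motifs do not overlap there. Of the 107 genes called higher in USP18ko that had a window, 28 (26.2%) held the response element core and 21 (19.6%) the gamma-activated site, against 3.99% and 9.55% of the 27025 genes with a window. The 27025 genes were not limited to those tested on the array, from which the called genes come, so the sets are unlike. These shares are descriptions with no test. The windows of Oas1a and Oas1g were 85.3% identical, and pairs among the 4 members 42.1% to 46.6%. Oas1g had no value of its own here, and whether the Oas1a probe set also binds its transcript was not tested.

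**Figure D1:**
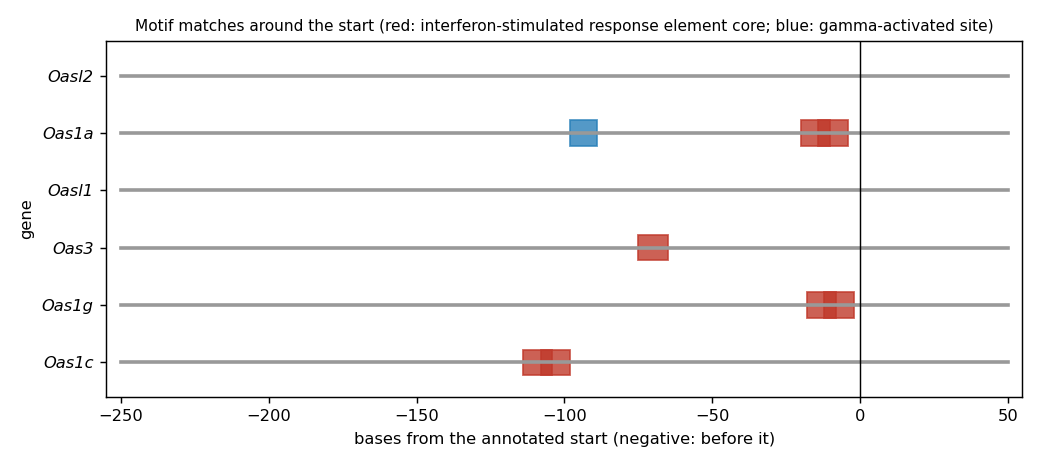
Motif matches in the promoter windows of 4 members, Oas1g and Oas1c, plotted to scale as distance in bases from the start used for each window. Red boxes are matches to the interferon-stimulated response element core and the blue box a gamma-activated site. The matches of Oas1a and Oas1g lie next to the start, whereas the lines of Oasl1 and Oasl2 are bare.

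The arrays were checked before the members were read. Ifnar1 read 6.24 to 6.68 in the 6 arrays without the gene and 7.44 to 8.21 in the other 6 arrays. Usp18 read 4.04 to 4.36 in WT and 3.50 to 3.76 in the other 9 arrays, so it was as low in IFNARko, where the gene is intact, as in USP18ko. Whether its probe set lies in the deleted part was not given in the sources used here. IFNARko replicate 1 stood apart: its beta-actin probe sets differed by 1.48 on the log2 scale between the 3′ and 5′ ends of the transcript, a measure of RNA integrity and labelling, and those of the other 11 arrays by 0.20 to 0.54. Xist, a transcript of the inactive X chromosome, was high (10.17 to 11.34) in WT replicate 1 and all double knockout arrays and 4.98 to 5.69 in the other 8, so the double knockout cannot be told apart from a sex difference where it is compared with either single knockout. The Y-linked transcript Eif2s3y read 3.05 to 3.22 in WT replicate 1 and double knockout replicates 1 and 3, and 7.16 in double knockout replicate 2, where Xist was also high. Neuronal transcripts marked the tissue as brain, with Snap25 at 11.69 to 12.15 in all arrays.

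Values below are log2 signals, on which a difference of 1 is a factor of 2 in signal. Detection calls were not used here, and probe sets differ in brightness, so levels are compared between genotypes and not between genes. Differences are not given as folds because the WT signals are not shown to be above background. For the same reason the order of the differences below is one of signals and not of transcript rises.

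Loss of Usp18 with the receptor gene intact raised 5 of the 6 members. The difference in signal was largest for Oasl2, followed by Oas1a and Oasl1, then Oas2 and Oas3, while Oas1b did not pass. Among all genes tested by limma, 1.15% were called higher at an adjusted p under 0.05, and the median log2 difference was -0.02, against a median of 1.70 over the 6 members. For those 5 members all USP18ko arrays lay above all WT arrays, which held for 4.07% of all genes, and above the other 9 arrays, which held for 2.15%.

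Oasl2, the synthetase-like gene with retained activity, read 4.03, 4.39 and 4.20 in the WT arrays and 8.15, 8.15 and 7.26 in the USP18ko arrays. The USP18ko arrays lay far above WT, and replicate 3 was the low one of the group. The difference was 3.65 (SE 0.20, limma adjusted p = 3.07e-07), the 10th largest rise of all genes. Oas1a, the active short synthetase, read 6.65, 6.83 and 6.44 in WT and 9.25, 8.74 and 9.10 in USP18ko. The groups did not overlap, and replicate 2 was lowest among the USP18ko arrays. Oas1a rose by 2.39 (SE 0.14, limma adjusted p = 4.40e-07). Oasl1, the gene of the inactive relative, read 5.03, 4.98 and 5.02 in WT and 7.33, 7.18 and 7.33 in USP18ko, so both groups were tight and far apart. Its rise was 2.27 (SE 0.14, limma adjusted p = 8.21e-07).

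The genes of the larger enzymes had smaller differences in signal, and no pair test below passed. Oas2 read 5.27, 5.35 and 5.46 in WT and 6.44, 6.38 and 6.66 in USP18ko, a rise of 1.13 (SE 0.15, limma adjusted p = 0.00107) without overlap. Oas3 read 4.44, 4.15 and 4.50 in WT and 5.03, 4.88 and 5.09 in USP18ko. These groups were separate but close, with a rise of 0.63 (SE 0.12, limma adjusted p = 0.0117). The Oas3 call was lost without USP18ko replicate 1 (0.62, adjusted p = 0.0595) or replicate 3 (0.59, adjusted p = 0.0814) and with these 2 groups alone (0.63, adjusted p = 0.0750), within a range of adjusted p from 0.00675 to 0.0814 over the alternatives tried. Oas1b, whose state in these mice is not known because the strain was not given, read 6.20, 6.23 and 6.10 in WT. In USP18ko it read 6.51, 6.22 and 6.75. Replicate 2 of USP18ko lay within the WT range, and the difference of 0.32 (95% interval -0.02 to 0.65, limma adjusted p = 1.00) did not pass.

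**Figure D2:**
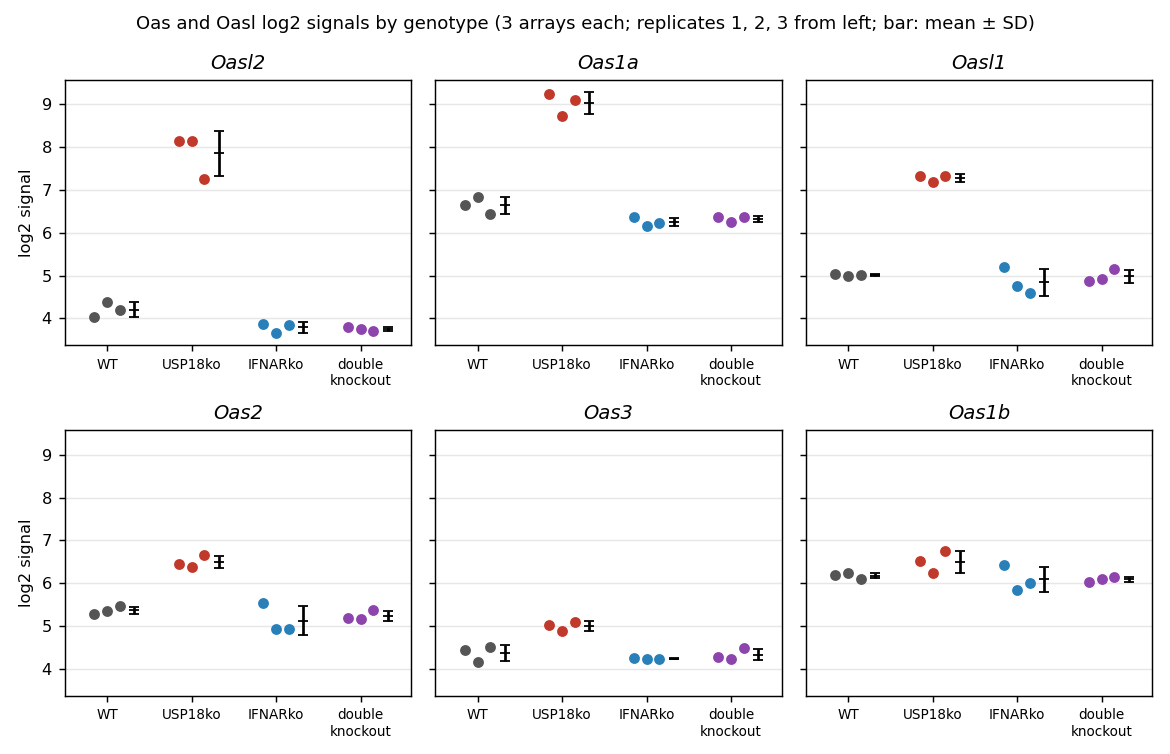
Log2 signals of the 6 members (vertical axis, shared by all panels) in each array of the 4 genotypes, as points for replicates 1, 2 and 3 from left to right with the mean ± SD (n = 3) beside them. The USP18ko points of Oasl2, Oas1a, Oasl1, Oas2 and Oas3 lie above all other points of the panel, and those of Oas1b do not.

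The sizes of the rises were compared between members as the log2 difference of both signals within each array, so that no level of a probe set was set against that of another. Of the 15 pairs, 13 had USP18ko and WT arrays that did not overlap. Each of these had p = 0.1 by an exact two-sided permutation test, the smallest p that 3 arrays against 3 can give, and an adjusted p of 0.115 over the 15 pairs, so none could pass, and the sizes below are descriptions of signal. The difference in rise was -1.38 for Oasl1 minus Oasl2, its neighbour on the reference assembly (SE 0.35, of the difference between the group means). It was -1.26 for Oas1a minus Oasl2 (SE 0.38), and neither pair overlapped. The rise in signal of Oas1a exceeded that of Oas2 by 1.26 (SE 0.21) and that of Oas3 by 1.76 (SE 0.24), and that of Oas2 exceeded that of Oas3 by 0.50 (SE 0.12). Oas1a exceeded its paralog Oas1b by 2.07 (SE 0.14), with within-array differences of 2.35 to 2.74 in USP18ko and 0.34 to 0.60 in WT.

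The pairs whose arrays overlapped were Oas1a with Oasl1 and Oas1b with Oas3. The rises of Oas1a and Oasl1 differed by 0.12 (SE 0.16, exact permutation p = 0.5), and those of Oas1b and Oas3 by -0.31 (SE 0.17, exact permutation p = 0.2). Leaving out each WT or USP18ko array in turn kept the sign of all 15 differences.

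The order of the genes along the reference assembly (GRCm38.p6) did not follow their rises. Oasl2 and Oasl1 lie side by side, and the others form a separate cluster in the order Oas2, Oas3, Oas1e, Oas1c, Oas1b, Oas1f, Oas1h, Oas1g, Oas1a and Oas1d. Within the cluster, the genes that rose stood at both ends, Oas2 and Oas3 at one and Oas1a near the other. The measured genes between them did not pass, with log2 differences of -0.12 for Oas1e, 0.06 for Oas1c, 0.32 for Oas1b and 0.09 for Oas1h (limma adjusted p = 1.00 each). A probe set annotated to both Oas1e and Oas1d also did not pass, at -0.24 (limma adjusted p = 1.00 over 22626 probe sets). Oas1c thus had the response element core in its window and no called difference here. Its genotype means ran from 4.17 to 4.55, at mean percentiles of 16.1 to 20.0 among probe sets. Whether its transcript was detected at all was not tested.

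Removal of the receptor gene from the Usp18-deficient background brought 5 of the 6 members down. In the double knockout against USP18ko, 1.48% of all genes were called lower by limma, and for all 6 members the double knockout arrays lay below all USP18ko arrays, which held for 8.09% of all genes. Oasl2 read 3.80, 3.76 and 3.71 in the double knockout and fell by 4.10 (SE 0.20, limma adjusted p = 7.09e-08). Oas1a read 6.37, 6.24 and 6.37 and fell by 2.70 (SE 0.14, limma adjusted p = 9.91e-08). Oasl1 read 4.88, 4.92 and 5.16 and fell by 2.29 (SE 0.14, limma adjusted p = 5.07e-07). The order of the falls was that of the rises, and the same USP18ko arrays enter both comparisons.

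Oas2 and Oas3 fell as well, by 1.26 (SE 0.15, limma adjusted p = 3.42e-04) and 0.68 (SE 0.12, limma adjusted p = 0.00604), and read 5.18, 5.15 and 5.37 and 4.27, 4.23 and 4.47 in the double knockout. Oas1b read 6.01, 6.09 and 6.15, below the USP18ko arrays without overlap, but its difference of -0.41 (95% interval -0.75 to -0.08, limma adjusted p = 0.598) did not pass, except with array weights (-0.46, adjusted p = 0.0123). This comparison sets arrays with high Xist against arrays with low Xist. With Eif2s3y as a covariate, chosen after seeing the data, the same 5 members were called, Oasl2 at -3.98 and Oas3 at -0.77. That fit cannot separate sex from genotype here, because Xist was high in every double knockout array and low in every USP18ko array. Double knockout replicate 2 was also high for both Xist and Eif2s3y.

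The interaction asks whether the effect of Usp18 loss without the receptor gene differed from its effect with it. For Oasl2 it was -3.68 (SE 0.28, limma adjusted p = 1.42e-05), for Oas1a -2.31 (SE 0.20, adjusted p = 3.80e-05) and for Oasl1 -2.13 (SE 0.20, adjusted p = 6.95e-05), against 0.823% of all genes called lower. Oas2 at -1.02 (SE 0.22, adjusted p = 0.0529), Oas3 at -0.54 (SE 0.16, adjusted p = 0.375) and Oas1b at -0.32 (SE 0.22, adjusted p = 0.941) did not pass. The adjusted p of Oas2 ranged from 0.0179 to 0.750 over the alternatives. It passed without IFNARko replicate 1 (-0.82), replicate 2 (-1.12) or replicate 3 (-1.12), with quantile normalization (-1.04) and with array weights (-0.86). In most alternatives it did not pass, and the highest adjusted p came with the Eif2s3y covariate (-0.96, limma adjusted p = 0.750). The interaction includes the double knockout, whose arrays all had high Xist.

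**Figure D3:**
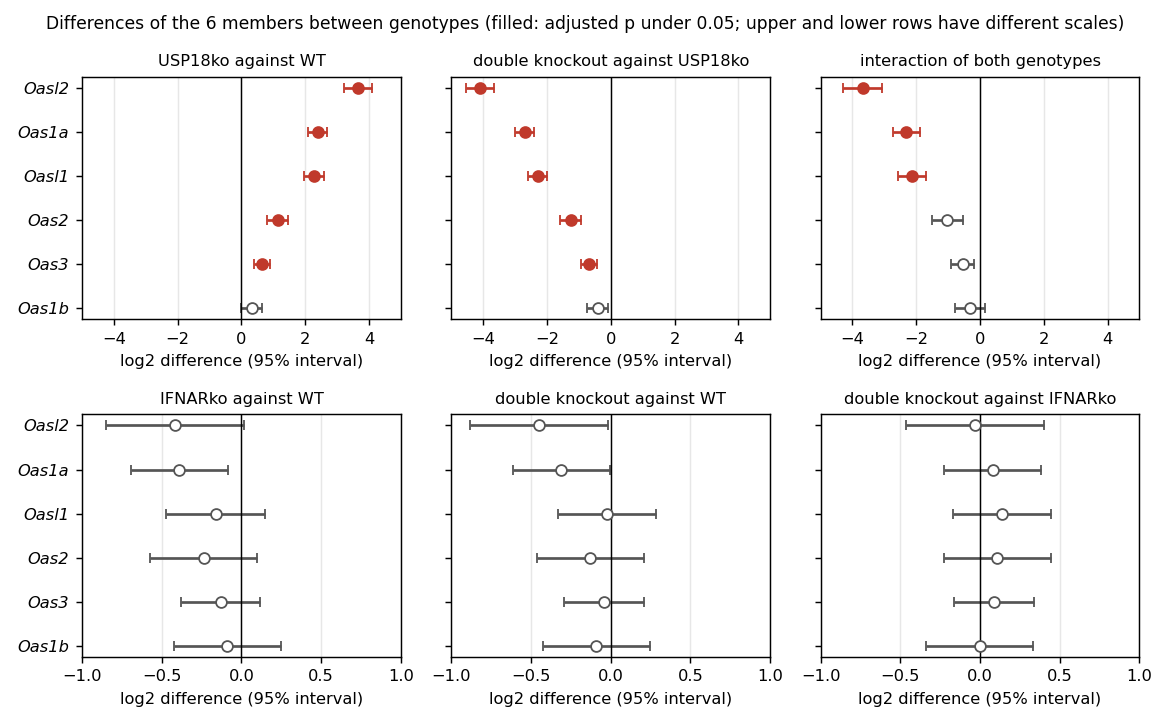
Log2 differences of the 6 members (points) with 95% intervals (bars) in the 6 comparisons, filled where the adjusted p was under 0.05. The horizontal axis covers a smaller range in the lower row than in the upper. The interaction is the double knockout minus IFNARko less USP18ko minus WT. All members in the lower row are unfilled.

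Without the receptor gene, Usp18 loss left no called difference in the family. In the double knockout against IFNARko, 0 of 6 members and 0% of all genes were called by limma, with 0 members and 1022 genes at an unadjusted p under 0.05. The differences ran from -0.03 for Oasl2 (95% interval -0.47 to 0.40) to 0.14 for Oasl1 (95% interval -0.17 to 0.45), and the groups overlapped for every member, whereas 20.5% of all genes had groups that did not. The IFNARko arrays read 5.53, 4.93 and 4.92 for Oas2 and 5.20, 4.77 and 4.58 for Oasl1, so replicate 1 set the upper end of these ranges. Without it the differences were 0.31 for both Oas2 and Oasl1 (adjusted p = 0.975 each), and array weights called both (0.29 and 0.33, adjusted p = 0.0321 and 0.0293), in a fit that called 814 of 12393 genes in this comparison.

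Basal levels were read by setting IFNARko and the double knockout against WT. No member passed in either, where limma called 1 gene lower (0.00807%) and 2 genes lower (0.0161%), and both use the same WT arrays. All 6 members had negative differences in both, except that in the double knockout Oasl1 turned positive with quantile normalization and Oas3 with array weights, and that Oasl1, Oas3 or, in IFNARko, Oas1b did so in some fits that left out an array. In IFNARko against WT 1 member had an unadjusted p under 0.05, and in the double knockout against WT 2. Of all genes, 52.3% and 56.4% were below 0 in these comparisons.

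Oasl2 and Oas1a were the members whose arrays separated. Oasl2 read 3.87, 3.65 and 3.84 in IFNARko, below the lowest WT array at 4.03, and differed from WT by -0.41 (95% interval -0.85 to 0.02, limma adjusted p = 0.519) and in the double knockout by -0.45 (95% interval -0.88 to -0.02, adjusted p = 0.995). Oas1a read 6.36, 6.17 and 6.22 in IFNARko, below the lowest WT array at 6.44, and differed by -0.39 (95% interval -0.69 to -0.09, adjusted p = 0.482) and by -0.31 in the double knockout (95% interval -0.61 to -0.01, adjusted p = 0.995). Non-overlap in the lower direction held for 6.74% of all genes in IFNARko and 10.3% in the double knockout.

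The other members overlapped with WT in both. Oas2 differed by -0.24 and -0.13, Oasl1 by -0.16 and -0.02, Oas3 by -0.13 and -0.04, and Oas1b by -0.09 and -0.09, in IFNARko and the double knockout in that order. Without IFNARko replicate 1 the IFNARko differences were -0.46 for Oasl2, -0.44 for Oas1a, -0.44 for Oas2, -0.34 for Oasl1, -0.25 for Oas1b and -0.14 for Oas3, and none passed (adjusted p from 0.253 to 0.741).

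The order of the 4 genotypes was USP18ko, WT, double knockout and IFNARko for Oas1a, Oas2, Oas3 and Oasl1, and USP18ko, WT, IFNARko and double knockout for Oas1b and Oasl2. This second order rests on small differences between the double knockout and IFNARko, of -0.00170 for Oas1b and -0.03 for Oasl2. Without IFNARko replicate 1 the double knockout lay above IFNARko for Oas1b (0.16) and Oasl2 (0.00790) too. The sign also changed in other fits, for Oasl2 with the Eif2s3y covariate (0.11), so the order of these genotypes is not settled for Oas1b and Oasl2. Oasl2 had a mean ± SD (n = 3 arrays) of 7.85 ± 0.52 in USP18ko, 4.20 ± 0.18 in WT, 3.79 ± 0.12 in IFNARko and 3.76 ± 0.04 in the double knockout. Those of Oas1a were 9.03 ± 0.26, 6.64 ± 0.20, 6.25 ± 0.10 and 6.33 ± 0.07 in the same genotypes. IFNARko and the double knockout overlapped for every member, and WT overlapped with both for Oas1b, Oas2, Oas3 and Oasl1. Oas3 read 4.24, 4.23 and 4.23 in IFNARko, all within the WT range.

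Within USP18ko, replicate 2 was the lowest array for 5 of the 6 members, and replicate 3 was lowest for Oasl2. Replicate 3 was highest for Oas1b, Oas2 and Oas3, so the array with the least Oasl2 was not low for the family. Within IFNARko, replicate 1 was highest for all 6, and within the double knockout replicate 3 was highest for 4.

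The genes most like each member were found by the root mean square difference over the 12 arrays, after each gene was centred on its own mean. These are descriptions over arrays that share the same genotypes. For Oas1a they were Ifi35 (0.17), Parp9 (0.17), an interferon-induced ADP-ribosyltransferase family gene, and the immunoproteasome subunit Psmb9 (0.22). For Oasl1 they were the guanylate-binding protein gene Gbp7 (0.17), Parp9 (0.17) and Parp14 (0.23), and Oas1a and Oasl1 lay 0.23 apart, each among the 6 genes nearest to the other. For Oasl2 they were the chemokine Ccl12 (0.24), Lgals3bp (0.31) and Irf7 (0.32), while its nearest family member, Oas1a, came 27th at 0.63.

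Like Oasl2, Ccl12 was lowest in replicate 3 among the USP18ko arrays, at 8.54, 8.78 and 8.21. Lgals3bp and Irf7 were not, at 9.35, 9.60 and 9.70 and at 8.66, 8.24 and 8.66. Nearest to Oas2 were Sp100 (0.13), the antibody receptor gene Trim21 (0.16) and the complement gene Cfb (0.16). Nearest to Oas3 were Xdh (0.13), the chemokine Cxcl9 (0.13) and Lcp2 (0.14). Oas1b moved little, and none of its nearest genes, Btk, Csf1 and Cd22 (0.11 each), was called in USP18ko against WT. Btk and Cd22 differed there by 0.19 and 0.11. Csf1 differed by 0.48 (limma adjusted p = 0.160), with USP18ko arrays above all WT arrays, which held for 4.07% of all genes. Oas3 came only 1789th in likeness to Oas1b, at 0.22.

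Genes that act after the synthetases were not called. Abce1, a ribosome recycling factor also tied to the 2-5A pathway, differed between USP18ko and WT by -0.02, and Pde12 and Akap7, whose proteins can degrade 2-5A, by -0.00405 and -0.15 (limma adjusted p = 1.00 each). Of these 3 measured genes none passed in any of the 6 comparisons.

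Genes that act before the family were mixed. Of 5 measured genes, 2 rose in USP18ko and 3 did not pass (median 0.64). Irf7, which amplifies the interferon response, rose by 3.40 (SE 0.12, limma adjusted p = 4.71e-09) and Irf9, the DNA-binding part of the interferon complex, by 0.88 (SE 0.12, adjusted p = 0.00100). Irf1 (0.64, adjusted p = 0.126), Stat2 (0.62, adjusted p = 1.00) and Irf3 (0.01, adjusted p = 1.00) did not pass. The USP18ko arrays of Irf1 and Stat2 lay above all WT arrays, which held for 4.07% of all genes, and those of Irf3 overlapped. Stat2 read 4.33, 5.67 and 5.35 in IFNARko, so replicate 1 widened the spread that all groups share (SE 0.27). In the double knockout against USP18ko, Irf7, Irf9 and Irf1 fell, by 3.76, 1.26 and 0.86. Stat2 had a second probe set, at 0.39 in USP18ko against WT (adjusted p = 0.454 over probe sets), which fell by 0.64 in the double knockout against USP18ko (adjusted p = 0.0218).

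Sensors of foreign nucleic acid, with their adaptors and effectors, were also mixed. Of 8 measured of 10 listed, 4 rose in USP18ko and 4 did not pass (median 1.10). Ifih1 and Dhx58, RNA sensors of the same helicase family, rose by 2.41 (SE 0.19, limma adjusted p = 5.84e-06) and 1.76 (SE 0.15, adjusted p = 1.48e-05), the nucleic acid sensor Zbp1 by 1.66 and the endosomal receptor Tlr3 by 1.63. Eif2ak2, which encodes the kinase PKR, differed by 0.28, Adar by 0.57, Sting1 by 0.31 and the adaptor Mavs by 0.03, none of which passed. The USP18ko arrays of Eif2ak2, Adar and Sting1 lay above all WT arrays, as for 4.07% of all genes, and those of Mavs overlapped. Adar read 5.31, 6.49 and 6.26 in IFNARko, so replicate 1 widened its shared spread too (SE 0.24). In the double knockout against USP18ko 6 of the 8 fell, with Ifih1 at -2.72, Eif2ak2 at -0.57 and Sting1 at -0.50. In the interaction Ifih1, Tlr3, Dhx58 and Zbp1 passed. Probe sets disagreed for Dhx58, of whose other 2 probe sets 1 rose by 1.01 and 1 differed by -0.02, and for Tlr3, whose other probe set read 0.56 and did not pass (adjusted p = 0.0569 over probe sets). The other probe set of Eif2ak2 differed by 0.54 between USP18ko and WT and by -0.53 between the double knockout and USP18ko, and passed in neither (adjusted p = 0.136 and 0.131 over probe sets).

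**Figure D4:**
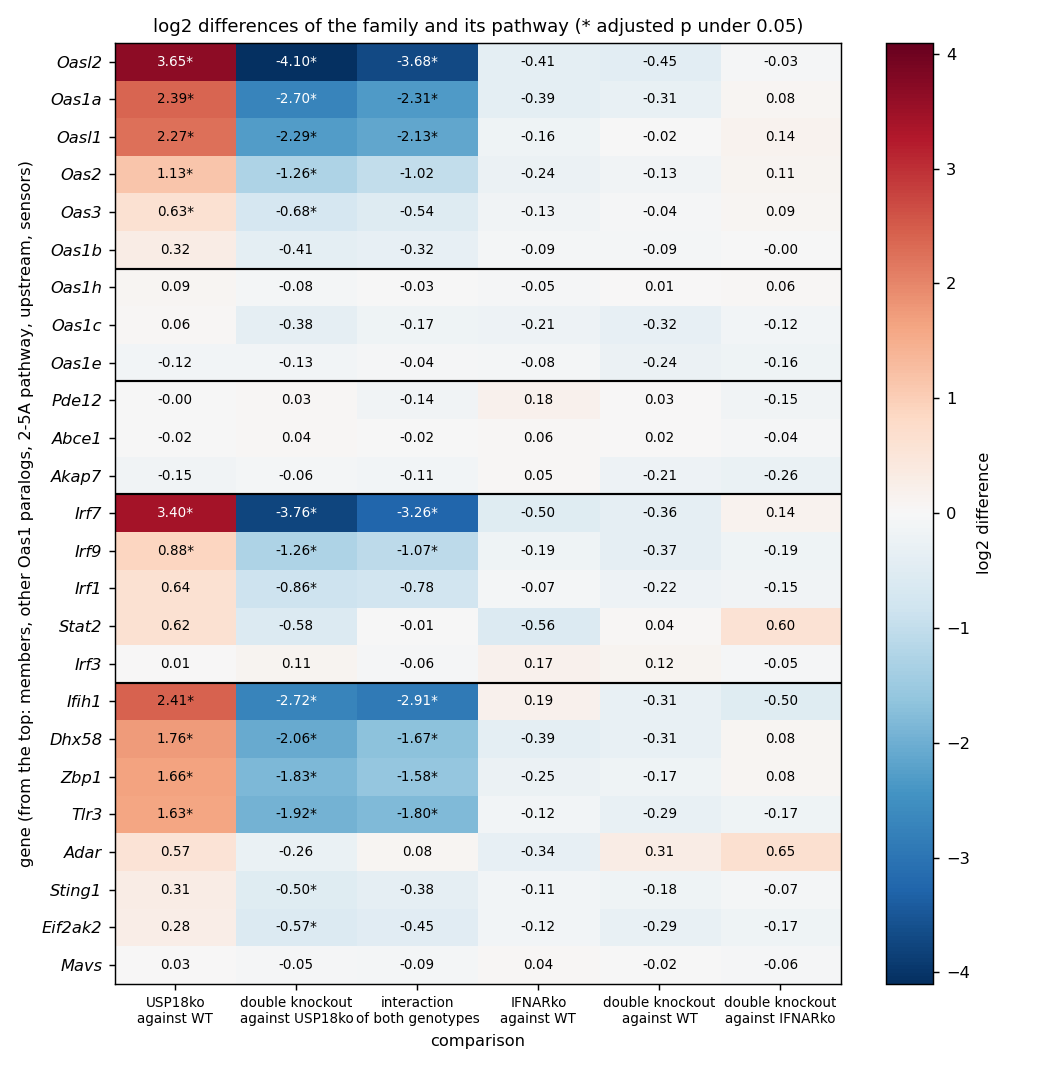
Log2 differences (colour and printed value) of the members, other Oas1 paralogs, 2-5A pathway genes, upstream genes and sensors (rows, in blocks from the top) in the 6 comparisons (columns), with an asterisk where the adjusted p was under 0.05. The middle blocks of paralogs and 2-5A genes carry no asterisk, and those of the members, upstream genes and sensors do in the first 3 columns.

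Markers of other cells were read beside the family. In bulk tissue, more cells of a type and more RNA per cell cannot be told apart. Of 7 measured microglia markers 2 rose in USP18ko, Aif1 by 1.93 (limma adjusted p = 0.00205) and Itgam by 0.80 (adjusted p = 0.00909). The other 5 missed the threshold, with P2ry12 at -0.35, Tmem119 at 0.41, Cx3cr1 at 0.35, Trem2 at 0.60 and Csf1r at 0.89 (adjusted p = 0.0976). The USP18ko arrays of Csf1r, which adds most to the summed signal, lay above all WT arrays. The summed linear signal of the 7 ran from 1011 to 1709 in WT and 1786 to 3007 in USP18ko, and from 1237 to 1538 in IFNARko and 1273 to 1341 in the double knockout. The summed signal of the 6 members ran from 273 to 299.9 in WT and 1044 to 1265 in USP18ko. Of 9 leukocyte markers 1 rose, Ptprc, also expressed by microglia, by 2.12 (SE 0.24, adjusted p = 2.23e-04), and the summed signal ran from 284 to 316 in WT and 486 to 592 in USP18ko. Of those that missed the threshold, the neutrophil genes S100a8 and S100a9 had USP18ko arrays above all WT arrays, at 1.90 (adjusted p = 0.112) and 1.63 (adjusted p = 0.0894). The T cell genes Cd3e and Cd3g differed by -0.00477 and 0.03, neither of which passed. No marker of astrocytes, neurons, oligodendrocytes, endothelium or choroid plexus and ependyma passed in this comparison. The WT arrays were uneven for some of them, with replicate 2 high. In WT, Mog read 3.11, 7.32 and 3.36, Mag 6.59, 8.32 and 6.35, Mbp 11.16, 12.98 and 10.38, and Gfap 8.93, 10.23 and 9.04. The spread was therefore wide (SE 0.83 for Mog and 0.28 for Gfap), and a missed threshold says little about these genes. The part of these cells in the rise of the family was not tested.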

How the data were processed

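The members and lists were chosen with earlier results of these data known. The authors deposited 1 log2 signal for each probe set and array. They used affy, an R package, per the submitters' processing notes, with settings not given in the sources used here. A log2 scale was inferred from the values (2.36 to 13.81). Scanner files were not used here.

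Of 22690 probe sets, 64 were controls, 20380 had 1 gene, 691 several and 1555 were not listed. Each gene took the probe set with the highest mean, giving 12393 genes. All 12 arrays entered 1 limma fit (version 3.58.1, R 4.3.3) with genotype as the only term, 8 residual and 4.67 prior degrees of freedom and no replicate block. Tests were two-sided, Benjamini-Hochberg adjusted over all genes of a comparison and called at an adjusted p under 0.05. Paralog rises used an exact permutation test.

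On simulated data of 12393 genes the fit recovered 35.8%, 89.0%, 99.0% and 99.6% of log2 changes of 0.5, 1, 2 and 4 in USP18ko against WT, with 5.55% false among the called, and 8.60%, 67.0%, 95.8% and 99.4% in the interaction. The simulation drew independent normal noise with each gene's own spread and put changes in the USP18ko arrays alone. It held no poor array, sex difference or correlation between genes, so these shares are not error rates of the real arrays.

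Named are the members, targeted genes, listed pathway genes, the 3 most similar genes per member, array checks and cell markers. Alternatives were other probe set summaries, a signal filter, normalizations, weights, variance priors, a fold threshold, a replicate block, the groups compared alone and each array left out. Added after seeing the data were an Eif2s3y covariate and a fit without 2 arrays. With 3 arrays per group, their number limits the precision.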

Additional observations from a re-analysis of the deposited data

Results flagged for a closer look

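The effect of Usp18 loss differed between brains without and with the receptor gene for 3 members by limma's interaction term. It was lower without the receptor gene by a log2 difference of -3.68 for Oasl2, -2.31 for Oas1a and -2.13 for Oasl1. In the arrays behind these values, Oasl2 was 3.65 higher in USP18ko than in WT, and in the double knockout it differed from IFNARko by -0.03.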

How the results depend on the processing

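The count of members called kept within a factor of 1.5 in all 6 comparisons under every alternative, except for these. When the lowest 40% of genes by mean signal were dropped, Oas1a was the 1 member left to test, so 1 was called higher in USP18ko against WT, 1 lower in the double knockout against USP18ko and 1 lower in the interaction. With array weights 2 members were called higher in the double knockout against IFNARko, where that fit called 814 of 12393 genes and the fit without weights 0. The replicate block left 5 members called in USP18ko against WT, 5 in the double knockout against USP18ko and 3 in the interaction. Whether the replicate numbers pair the arrays is mixed. Deviations of same-numbered arrays correlated above 0.1 in 6 of 18 pairs (range -0.15 to 0.27), in all 3 pairs of USP18ko with the double knockout (0.16, 0.27 and 0.14) but not in all 3 of any other 2 genotypes, and 8 of 12 arrays correlated best with one of their own number. In the double knockout against USP18ko, the block changed no member's call and left 178 genes called against 187. Of 933 other values, 920 kept their side of the threshold or stayed within the spread, 5 were no longer called, all of them of Oas3, and 8 became called, of Oas2, Oasl1 and Oas1b. The rise of Oasl2 in USP18ko ranged from 3.50 to 3.95, of Oas1a from 2.28 to 2.54 and of Oasl1 from 2.24 to 2.32. Genes called in USP18ko against WT numbered 143, and 28 under the signal filter, where 7436 genes were tested. Without IFNARko replicate 1 they numbered 184, and in the double knockout against USP18ko 239 against 187, although neither comparison uses the IFNARko group. The lack of detection calls limits what the rises and the basal differences can show.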
